A study of Saccharomyces cerevisiae with 10 samples.

Results

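Aminoacyl-tRNA synthetases were followed across a wild-type yeast strain and 3 strains that each lack a gene of the THO/TREX complex, which links transcription to mRNA export. The 32 genes, listed as a family, were found through the platform annotation of the array, which gave each of them 1 probe set, out of 5716 probe sets that stand for 5449 named genes. Of these, 18 encode cytosolic enzymes or enzymes used in both compartments, and 14 encode mitochondrial enzymes. Total RNA of Saccharomyces cerevisiae was hybridised to 10 single-colour Affymetrix arrays, 3 of W303-1A (WT), 3 of its hpr1 deletion (hpr1del), 2 of its sub2 deletion (sub2del) and 2 of its tho2 deletion (tho2del). All 4 strains are MATa haploids that share the auxotrophic alleles ura3-1, trp1-1, his3-11,15 and ade2-1, an auxotrophic allele of LEU2 and the can1-100 allele. HPR1 and THO2 were replaced by a kanMX4 marker and SUB2 by HIS3, each in 1 named strain, so a strain and its deletion cannot be told apart. Cultures were in mid-log growth in the rich medium YPAD. Replicates are called biological in the labels, without word of whether cultures were grown together, so the p-values reflect only how far these arrays vary, which may be technical.

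Each synthetase joins 1 amino acid to its tRNAs, and the charged tRNAs then feed the ribosome. Yeast runs this reaction in the cytosol and again inside mitochondria, where a small separate ribosome makes a few subunits of the respiratory chain. Most amino acids have a pair of nuclear genes, one for each compartment, but ALA1, GRS1, HTS1 and VAS1 supply both compartments from 1 gene. Many amino acid synthesis genes are under general control, in which the kinase Gcn2 senses uncharged tRNA and raises translation of the activator Gcn4.

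The values were intensities deposited by the authors on a linear scale, and log2 changes below are of intensity + 16. They are given with their standard error (SE) from limma, and a gene is said to have risen or fallen where its Benjamini-Hochberg adjusted p over all probe sets tested was under 0.05. Each deleted gene fell in its own strain, HPR1 from 573 to 202, SUB2 from 12371 to 79.2 and THO2 from 2467 to 252. THO2 was also lower in hpr1del (mean 1382, log2 -0.83, limma adjusted p = 0.004) and in sub2del (1186, -1.05, 0.00125). The alpha-cell gene STE3 read 271 in WT and 162, 187 and 183 in hpr1del, sub2del and tho2del as strain means. It fell in each mutant (log2 -0.67, -0.48 and -0.50). Of the genes that mark a cells, the a-factor gene MFA1 read 2085 in WT and 6166, 6243 and 13144 in hpr1del, sub2del and tho2del. MFA2 read 4268, 8365, 7012 and 10580 in the same order. STE2, BAR1 and STE6 read 6448, 1050 and 3540 in WT and 9132, 2572 and 2758 in hpr1del, so STE6 stood lower there. They were empty in sub2del and tho2del, as was the sporulation gene IME1, which read 575 in WT and 542 in hpr1del. The sporulation gene SPS4 read 47.0 in WT, 12.3 in hpr1del, 510 in tho2del and 515 on the 1 filled sub2del array, while the meiotic regulator NDT80 read 309 in WT, 300 in hpr1del, 278 on the 1 filled tho2del array and 139 in sub2del, and the part of these genes in the results was not tested. Empty cells, whose reason is not stated, numbered 7 to 66 on the hpr1del arrays and on WT replicates 1 and 3, and 414 to 811 on WT replicate 2 and all sub2del and tho2del arrays. Cytosolic members had 4 empty cells of 180 and mitochondrial members 4 of 140. In cultures measured in bulk, less RNA in every cell and more cells with little RNA cannot be told apart.

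The mitochondrial genes stood lower than the cytosolic ones in relation to WT in every mutant. Over the 17 cytosolic genes filled on all arrays, the median log2 difference from the WT mean was -0.19 to -0.21 on the hpr1del arrays, -0.41 and -0.42 in sub2del, with -0.25 and -0.28 in tho2del. Over the 12 mitochondrial genes filled on all arrays it was -0.30 to -0.40 in hpr1del, -0.92 and -0.94 in sub2del, with -0.72 and -0.88 in tho2del. All 7 mutant arrays lay below all 3 WT arrays in both medians, which on WT arrays ran from -0.09 to 0.07. The median of the 4288 probe sets filled on every array lay between -0.17 and -0.01 on the mutant arrays. No test was made of the difference between compartments. Probe sets of the mitochondrial genes read 244 to 2436 and those of the cytosolic genes 4660 to 15714, so compartment and brightness cannot be told apart.

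**Figure D1:**
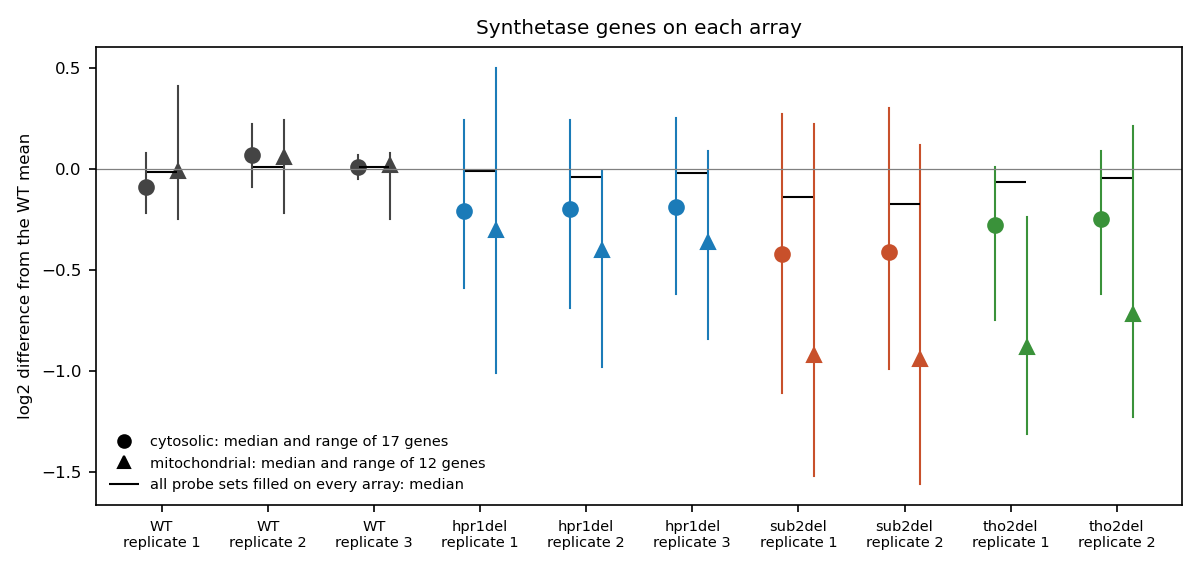
Log2 difference of intensity + 16 from the WT mean on each of the 10 arrays, with circles and triangles for the median of 17 cytosolic and 12 mitochondrial synthetase genes, vertical lines for their range and black dashes for the median of all 4288 probe sets filled on every array. Medians of both compartments lie below those of all WT arrays on each mutant array, and the mitochondrial ones are lowest in sub2del, at -0.92 and -0.94.

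Members varied most between WT arrays. The mean SD on the log2 scale of cytosolic members was 0.10 in WT, against 0.04, 0.05 and 0.03 in hpr1del, sub2del and tho2del. WT replicate 1 was the lowest of the WT arrays for 14 of the 18 cytosolic genes, and WT replicate 2 was the highest for 15. For the 13 mitochondrial genes with all WT values, WT replicate 2 was highest for 9. The fit pools the spread over strains, and the 3 comparisons with WT share the same WT arrays.

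Hpr1 is a subunit of THO, and the first question is how these genes stood without it. Of the 18 cytosolic genes, 7 fell and 1 rose (limma), against 22.8% of all 5663 probe sets that fell and 22.8% that rose (45.6% in either direction). Their arrays lay wholly below WT for 9 and above for 1, against 29.1% and 29.1% of all probe sets. The median change was -0.17, and -0.007 over all probe sets tested. DPS1, VAS1, KRS1, CDC60, WRS1, ILS1 and MES1 fell, with log2 changes between -0.63 and -0.23. FRS1 rose. Of the 14 mitochondrial genes, 7 fell and 0 rose, 8 lay wholly below WT, and the median was -0.26, and at an unadjusted p under 0.05 the counts were 9 and 0. MSD1, DIA4, ISM1, MSK1, MSR1, MSE1 and MSF1 fell, with log2 changes between -0.87 and -0.27.

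These hpr1del counts depended on single arrays. The cytosolic count of 8 was 5, 4 and 5 without hpr1del replicates 1, 2 and 3, and the mitochondrial count of 7 was 3 and 4 without hpr1del replicates 2 and 3. Over all probe sets the fits without hpr1del replicates 1, 2 and 3 called 2049 of 5661, 1915 of 5657 and 1951 of 5655. With all arrays 2581 of 5663 were called.

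Loss of the RNA helicase Sub2 gave more calls. In sub2del 15 of 17 tested cytosolic genes fell and 1 rose (limma), against 40.4% and 20.8% of 4801 probe sets (61.2% in either direction). Arrays lay wholly below WT for 15 and above for 2, against 45.9% and 25.2%. The median change was -0.45, and -0.165 over all probe sets. Of 13 tested mitochondrial genes, 12 fell and 0 rose, the same 12 lay wholly below WT, and the median was -0.95, with the same counts at an unadjusted p under 0.05. When array medians were subtracted, the median of all probe sets moved to -0.027, and 10 cytosolic and 12 mitochondrial genes fell and 2 cytosolic genes rose. The share of all calls in sub2del that were higher went from 34.0% to 46.8% with that scaling and to 43.5% after quantile normalization.

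The comparison of tho2del with WT concerns the THO subunit Tho2. Of 17 tested cytosolic genes, 10 fell and 0 rose (limma), against 32.6% and 24.4% of 4752 probe sets (57% in either direction), and 11 and 0 had an unadjusted p under 0.05. The median change was -0.27, and -0.061 over all probe sets. Of 13 tested mitochondrial genes, 12 fell and 0 rose, also at an unadjusted p under 0.05, with a median of -0.80. Arrays lay wholly below WT for 13 cytosolic and 12 mitochondrial genes and above for 0, against 39.2% and 29.9% of all probe sets. The cytosolic count was 6 with only the WT and tho2del arrays in the fit, which called 1936 of 4752 probe sets, against 2710 with all arrays. It was also lower without tho2del replicate 2, where tho2del has a single array and fewer of all probe sets were called.

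**Figure D2:**
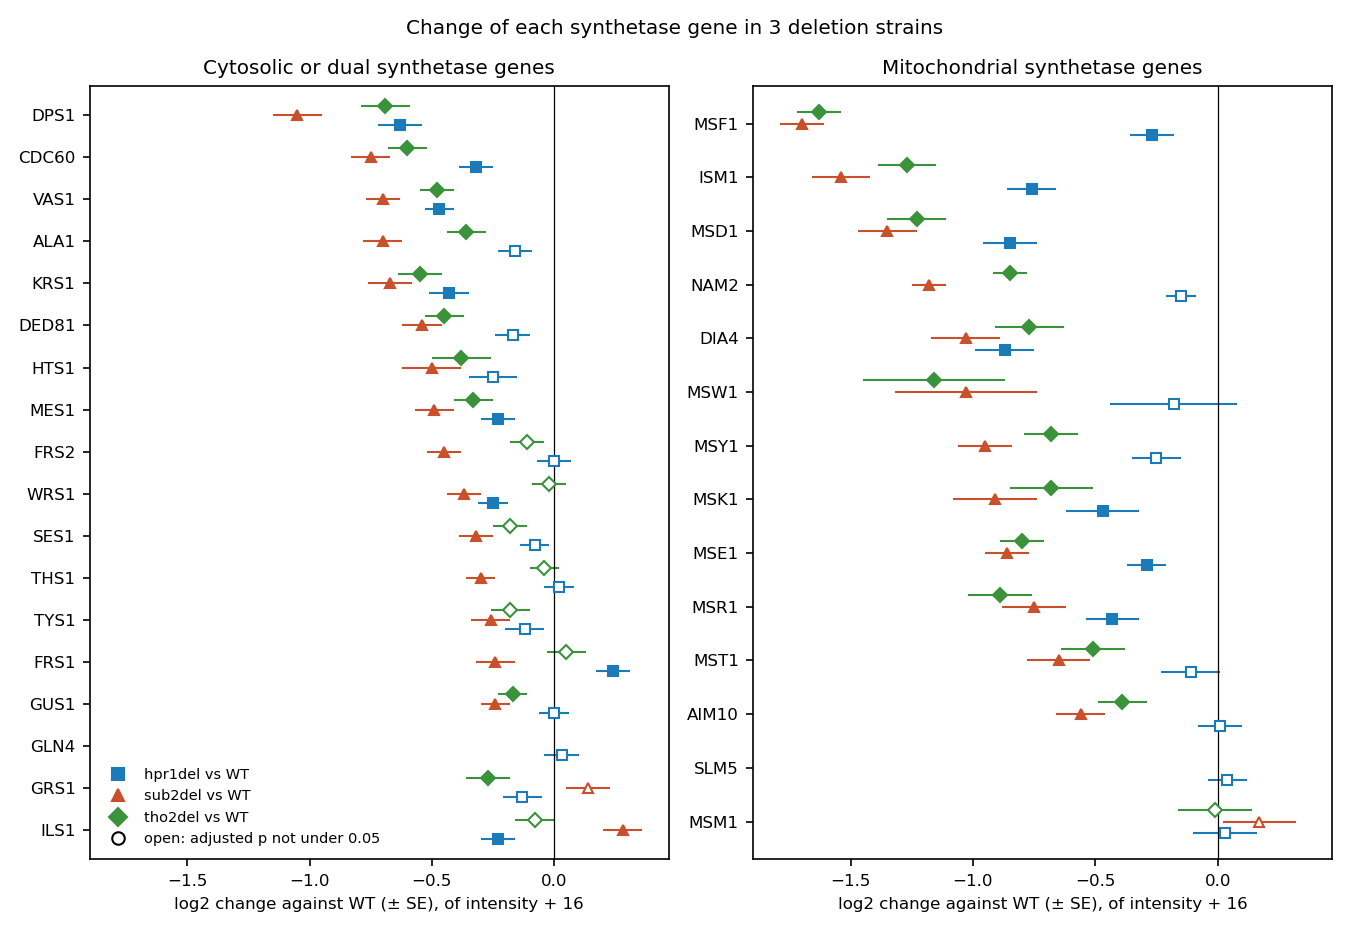
Log2 change of intensity + 16 against WT for the 18 cytosolic or dual genes (left) and the 14 mitochondrial genes (right), with a point per deletion strain and bars for the SE, filled where the limma adjusted p was under 0.05. MSF1 and ISM1 lie farthest left in sub2del, at -1.70 and -1.54, and ILS1 is the only cytosolic gene that rose in sub2del.

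Arrays can also be compared within the kind that has few, or many, empty cells. Against WT replicates 1 and 3 alone, 5 cytosolic genes fell and 1 rose in hpr1del, and 7 mitochondrial genes fell, where 2620 of 5619 probe sets were called, 1319 of them higher. Against WT replicate 2 alone, a single array assumed to vary like the others, 15 cytosolic genes fell and 1 rose in sub2del, and 12 fell in tho2del. Mitochondrial genes then fell in 11 of 12 tested cases in sub2del and in 10 of 12 in tho2del. Over all probe sets these fits called 3092 of 4604 in sub2del, 1106 of them higher, and 2855 of 4578 in tho2del, 1245 of them higher.

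Among the cytosolic genes, DPS1, which encodes aspartyl-tRNA synthetase, had the largest change. It read 11817, 14340 and 12804 on the WT arrays, 8608, 8028 and 8442 in hpr1del, 6004 and 6530 in sub2del, with 7685 and 8410 in tho2del. Every mutant array lay below every WT array. DPS1 fell by 0.63 ± 0.09 in hpr1del (limma adjusted p = 5.61e-04), by 1.05 ± 0.10 in sub2del (3.17e-05) and by 0.69 ± 0.10 in tho2del (3.86e-04). Against WT replicates 1 and 3 alone its change in hpr1del was -0.56, and against WT replicate 2 alone it was -1.19 in sub2del and -0.83 in tho2del.

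VAS1 makes the valyl enzyme of cytosol and mitochondria. Its WT arrays read 10938, 12049 and 11403, its hpr1del arrays 8625, 7957 and 8298, its sub2del arrays 6927 and 7201, and its tho2del arrays 8368 and 8069. The change was -0.47 ± 0.06 in hpr1del, -0.70 ± 0.07 in sub2del and -0.48 ± 0.07 in tho2del (limma adjusted p = 6.02e-04, 5.90e-05 and 5.79e-04), with no overlap with WT. Of the other genes that serve both compartments, ALA1 and HTS1 fell in sub2del and tho2del, and GRS1 is described below.

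KRS1, the lysyl enzyme gene, read 12925, 15714 and 14925 in WT, 10849, 10703 and 10670 in hpr1del, 9322 and 8884 in sub2del, with 9942 and 9877 in tho2del. Its changes were -0.43 ± 0.08, -0.67 ± 0.09 and -0.55 ± 0.09 in these strains (limma adjusted p = 0.00248, 2.20e-04 and 8.48e-04). CDC60, for leucine, read 9321, 10784 and 10479 in WT, 8011, 8469 and 7901 in hpr1del, 6173 and 5883 in sub2del, with 6734 and 6727 in tho2del. Its changes were -0.32 ± 0.07, -0.75 ± 0.08 and -0.60 ± 0.08 (limma adjusted p = 0.0064, 7.10e-05 and 3.24e-04). Both genes had all mutant arrays below all WT arrays, and both kept their calls against WT without any single array of the strains compared.

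ALA1, for alanine, was lowest in sub2del. It read 9537, 10671 and 10293 in WT, 9436, 8838 and 9042 in hpr1del, 5983 and 6562 in sub2del, with 7724 and 8088 in tho2del. The hpr1del change of -0.16 ± 0.07 was not called (95% interval -0.32 to 0.00, limma adjusted p = 0.0954). ALA1 fell by 0.70 ± 0.08 in sub2del and by 0.36 ± 0.08 in tho2del, and sub2del lay lower than hpr1del, at -0.54 ± 0.08 (limma adjusted p = 7.26e-04). Between sub2del and tho2del the difference was -0.33 ± 0.09 (limma adjusted p = 0.0258), and that call was lost when any 1 array was left out of those strains and when array medians were subtracted (0.124).

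Of the remaining cytosolic genes, DED81 (asparagine), HTS1 (histidine), MES1 (methionine) and GUS1 (glutamate) fell in both sub2del and tho2del. FRS2, SES1, THS1 and TYS1, for phenylalanine, serine, threonine and tyrosine, fell in sub2del, with changes of -0.45, -0.32, -0.30 and -0.26, and in tho2del their changes of -0.11, -0.18, -0.04 and -0.18 were not called. The smaller of these calls depended on scaling or on 1 array. GUS1 (-0.24) and TYS1 (-0.26) in sub2del were not called after quantile normalization (limma adjusted p = 0.0559 and 0.0678) or after array medians were subtracted (0.219 and 0.200), and SES1 was lost in both as well (0.0527 and 0.0758). THS1 was lost after array medians were subtracted (0.0585). Without sub2del replicate 2 GUS1 and TYS1 were lost (0.0551 and 0.123), and TYS1 was also lost without sub2del replicate 1 (0.0596). In tho2del the call of GUS1 (-0.17) held in 1 of 5 fits without 1 array, with a highest adjusted p of 0.229 without tho2del replicate 1, and was lost under both scalings (0.219 and 0.0824). That of HTS1 was lost without tho2del replicate 1 (0.0892) or 2 (0.0915). MES1 in tho2del was lost without tho2del replicate 2 (0.0597), and in hpr1del without any hpr1del array and without WT replicate 2 or 3 (highest 0.0868). GLN4, the glutaminyl enzyme gene, was empty on all sub2del and tho2del arrays, and read 4785 to 5357 in WT and 4965 to 5332 in hpr1del, with a change of 0.03 ± 0.07 (95% interval -0.14 to 0.21).

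ILS1, GRS1, FRS1 and WRS1 departed from the common pattern in 1 strain or another. ILS1, for isoleucine, read 10537, 12440 and 11635 in WT, 9749, 9690 and 9899 in hpr1del, 13889 and 14134 in sub2del, with 10939 and 10874 in tho2del. The sub2del arrays were the highest of all and the hpr1del arrays the lowest. ILS1 rose by 0.28 ± 0.08 in sub2del (limma adjusted p = 0.0124) and fell by 0.23 ± 0.07 in hpr1del (0.0242), while in tho2del the change of -0.08 ± 0.08 was not called (0.424). The difference of 0.52 ± 0.08 between sub2del and hpr1del (limma adjusted p = 8.71e-04) was called without any single array, whereas the rise in sub2del was lost without sub2del replicate 2 (0.0675), with only the WT and sub2del arrays in the fit (0.0897) and with the empty-cell class as a block (0.171, adjusted p = 0.123). In hpr1del the call of ILS1 held in 1 of 6 fits without 1 array, with a highest adjusted p of 0.0809 without hpr1del replicate 2, and was also lost after quantile normalization (0.0822) and after array medians were subtracted (0.0562).

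GRS1, the glycyl gene for both compartments, read 11388, 12213 and 11809 in WT and 9564, 11549 and 11388 in hpr1del. Its sub2del arrays read 12885 and 13198 and its tho2del arrays 9735 and 9896. The sub2del arrays lay above all others, with a change of 0.14 ± 0.09 against WT that was not called (limma adjusted p = 0.199), though it was called after quantile normalization (0.242, adjusted p = 0.0469) and after array medians were subtracted (0.282, 0.0283). In tho2del GRS1 fell by 0.27 ± 0.09 (limma adjusted p = 0.0339), a call that held in 1 of 5 fits without 1 array, with a highest adjusted p of 0.132 without tho2del replicate 1, and was lost under both scalings (0.141 and 0.0518). It was 0.41 ± 0.10 higher in sub2del than in tho2del (limma adjusted p = 0.0217), and without single arrays of those strains the adjusted p was between 0.0727 and 0.103.

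FRS1 and FRS2 encode the beta and alpha subunits of the cytosolic phenylalanyl enzyme. FRS1 read 9963, 11034 and 10349 in WT, 12364, 12329 and 12424 in hpr1del, 9356 and 8351 in sub2del, with 10477 and 11121 in tho2del. All hpr1del arrays exceeded all WT arrays and both sub2del arrays lay below them. FRS1 rose by 0.24 ± 0.07 in hpr1del (limma adjusted p = 0.0193) and fell by 0.24 ± 0.08 in sub2del (0.0247), while FRS2 had a change of 0.00 ± 0.07 in hpr1del (0.995). Both calls of FRS1 were fragile. In hpr1del the adjusted p was 0.0547, 0.0618 and 0.0640 without hpr1del replicates 1, 2 and 3, and in sub2del the call was lost without sub2del replicate 2 (0.195), without WT replicate 2 (0.0524), with only the WT and sub2del arrays in the fit (0.126), after quantile normalization (0.0748) and after array medians were subtracted (-0.102, adjusted p = 0.300). The difference of -0.48 ± 0.08 between sub2del and hpr1del was larger than the spread (limma adjusted p = 0.00113) and was called without any single array. FRS2 had nearly the same difference between these mutants, -0.45 ± 0.07 (0.00147), and its change against WT in sub2del was -0.45 ± 0.07. No test compared FRS1 with FRS2.

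WRS1, for tryptophan, read 6650, 6630 and 7119 in WT, 5875, 5495 and 5768 in hpr1del, 5068 and 5417 in sub2del, with 6719 and 6696 in tho2del. The tho2del arrays lay within the WT range and the other mutants below it. WRS1 fell by 0.25 ± 0.06 in hpr1del and by 0.37 ± 0.07 in sub2del (limma adjusted p = 0.0108 and 0.00159), and in tho2del the change was -0.02 ± 0.07 (95% interval -0.18 to 0.14). It was 0.23 ± 0.07 higher in tho2del than in hpr1del (limma adjusted p = 0.0297), which was not called in any fit without 1 array of those strains (0.0523 to 0.122) or under either scaling (0.0753 and 0.0686). The fall in hpr1del was lost without hpr1del replicate 2 (0.0555).

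**Figure D3:**
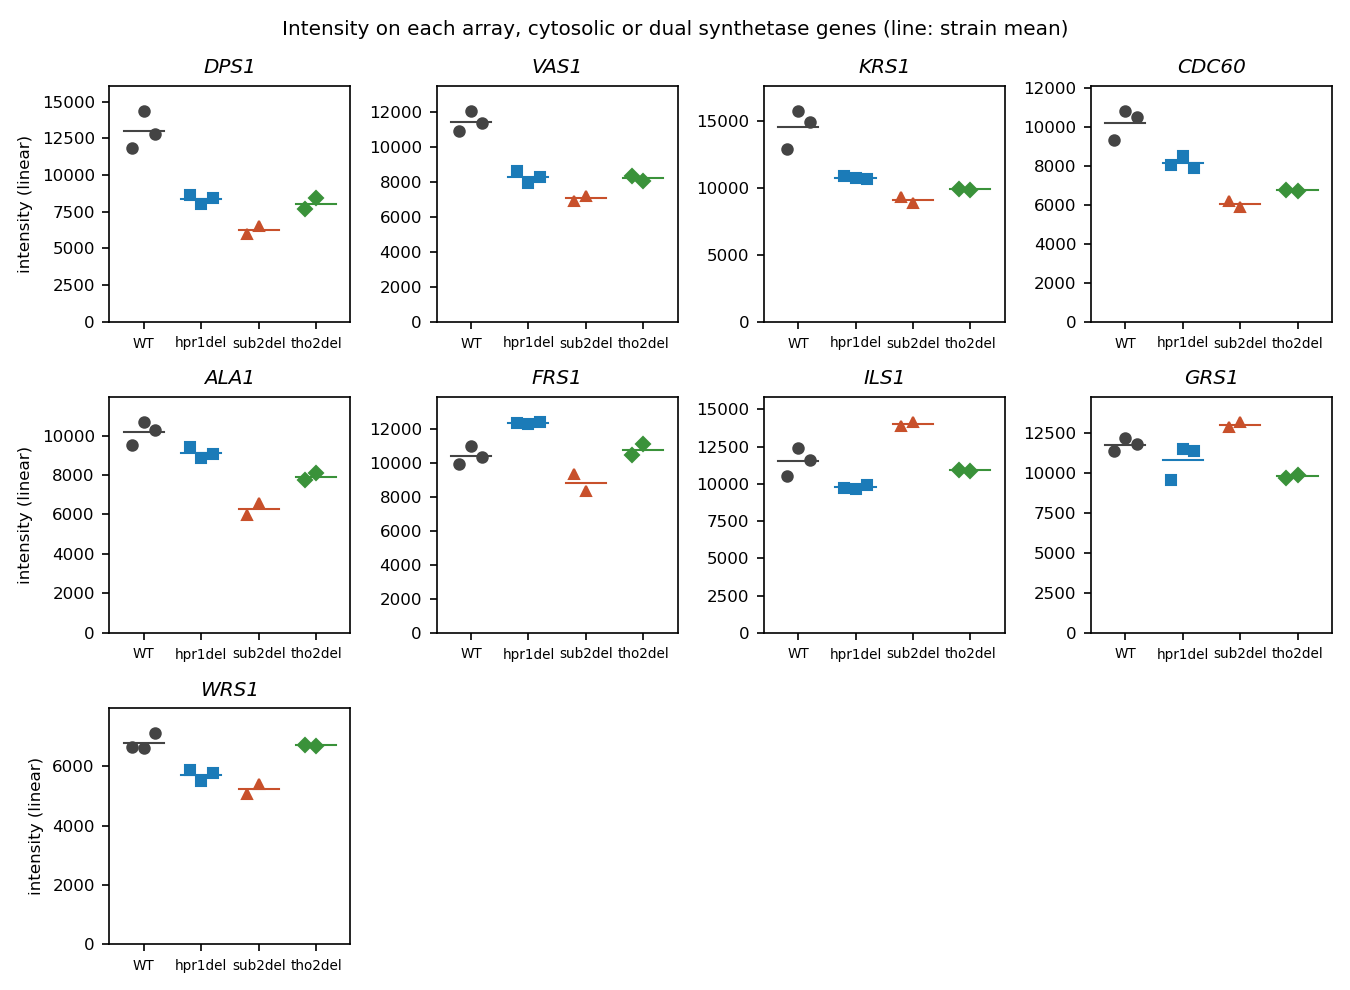
Linear intensity on every array for the 9 cytosolic or dual genes with array values in the text, a point per array and a line for the strain mean, with each vertical axis starting at 0. DPS1, VAS1, KRS1 and CDC60 lie below WT on all 7 mutant arrays, while FRS1 is highest in hpr1del and ILS1 and GRS1 are highest in sub2del.

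Among the mitochondrial genes, MSF1, for phenylalanine, had the largest fall. It read 929 and 860 on WT replicates 1 and 3, with replicate 2 empty, 734, 716 and 763 in hpr1del, 244 and 285 in sub2del, with 278 and 277 in tho2del. The sub2del and tho2del arrays reached at most 285, and the lowest of the others read 716. The deleted THO2 read 183 to 322 on the tho2del arrays, so MSF1 may lie near the background in sub2del and tho2del. The same holds for ISM1 in sub2del (322 and 311) and MSW1 in tho2del (308 and 279). The sizes of these falls are therefore uncertain. MSF1 was 3.26-fold lower in sub2del (log2 -1.70 ± 0.09, limma adjusted p = 6.97e-06) and 3.10-fold lower in tho2del (-1.63 ± 0.09, 1.08e-05). In hpr1del it fell by 0.27 ± 0.09 (limma adjusted p = 0.0331), and that call was lost without any 1 hpr1del array (highest 0.106). The differences from hpr1del were -1.43 ± 0.09 in sub2del and -1.36 ± 0.09 in tho2del (limma adjusted p = 2.79e-05 and 7.02e-05).

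NAM2, which makes the leucyl enzyme and is also known for its part in splicing mitochondrial introns, read 866, 877 and 863 in WT, 751, 761 and 826 in hpr1del, 376 and 374 in sub2del, with 459 and 493 in tho2del. The 4 strains did not overlap. NAM2 fell by 1.18 ± 0.07 in sub2del and by 0.85 ± 0.07 in tho2del (limma adjusted p = 4.76e-06 and 2.46e-05), and the hpr1del change of -0.15 ± 0.06 was not called (95% interval -0.30 to -0.01, limma adjusted p = 0.0705). It was lower in sub2del than in hpr1del, at -1.02 ± 0.07, and lower in tho2del than in hpr1del, at -0.69 ± 0.07 (limma adjusted p = 2.35e-05 and 2.34e-04). Of 13 tested mitochondrial genes, NAM2 alone differed between sub2del and tho2del (-0.33 ± 0.08, limma adjusted p = 0.0173), and this call held in 1 of 4 fits without 1 array and was lost after quantile normalization (-0.066, adjusted p = 0.729) and after array medians were subtracted (-0.214, 0.127).

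ISM1, for isoleucine, read 941, 990 and 920 in WT, 463, 616 and 599 in hpr1del, 322 and 311 in sub2del, with 373 and 396 in tho2del. WT was highest, then hpr1del, tho2del and sub2del, with no overlap between strains. The change of ISM1 was -0.76 ± 0.10 in hpr1del, -1.54 ± 0.12 in sub2del and -1.27 ± 0.12 in tho2del (limma adjusted p = 6.11e-04, 1.32e-05 and 4.27e-05). Sub2del and tho2del did not differ beyond the spread (-0.27 ± 0.13, 95% interval -0.56 to 0.02). MSD1, for aspartate, read 1274, 1797 and 1534 in WT, 829, 830 and 842 in hpr1del, 588 and 583 in sub2del, with 633 and 648 in tho2del. Its changes were -0.85 ± 0.11, -1.35 ± 0.12 and -1.23 ± 0.12 (limma adjusted p = 4.30e-04, 3.12e-05 and 6.38e-05). Each strain of MSD1 kept to its own range, though the WT arrays spanned more than the mutants.

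DIA4, a likely seryl enzyme gene, was the mitochondrial member with the largest fall in hpr1del. It read 839, 921 and 724 in WT, 461, 409 and 464 in hpr1del, 424 and 367 in sub2del, with 419 and 541 in tho2del. The mutants overlapped one another and lay below WT. The changes of DIA4 were -0.87 ± 0.12, -1.03 ± 0.14 and -0.77 ± 0.14 in hpr1del, sub2del and tho2del (limma adjusted p = 7.20e-04, 2.50e-04 and 0.00155). Its difference between tho2del and hpr1del was 0.10 ± 0.14 (95% interval -0.22 to 0.41), and between sub2del and hpr1del -0.17 ± 0.14 (-0.48 to 0.15).

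MSR1, for arginine, read 719, 988 and 874 in WT, 655, 604 and 626 in hpr1del, 493 and 507 in sub2del, with 423 and 485 in tho2del. Its changes were -0.43 ± 0.11, -0.75 ± 0.13 and -0.89 ± 0.13 (limma adjusted p = 0.0134, 8.94e-04 and 4.14e-04), the first of which was lost without hpr1del replicate 2 (0.0527). MSE1, for glutamate, read 891, 999 and 988 in WT, 797, 768 and 770 in hpr1del, 479 and 567 in sub2del, with 517 and 568 in tho2del. Its log2 changes came to -0.29 ± 0.08, -0.86 ± 0.09 and -0.80 ± 0.09 (limma adjusted p = 0.0185, 7.39e-05 and 1.31e-04). For MSE1 the hpr1del call was lost without hpr1del replicate 2 (0.0648) or 3 (0.0616) or WT replicate 3 (0.0532), and tho2del lay lower than hpr1del, at -0.51 ± 0.09 (0.00339).

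Of the other mitochondrial genes, MSK1 and MSW1 each had 1 array far from the rest of its strain. MSK1, whose precursor is also known to help import a lysine tRNA into mitochondria, read 2436 on WT replicate 1 against 1629 and 1531 on the others, and its changes were -0.91 ± 0.17 in sub2del, -0.68 ± 0.17 in tho2del and -0.47 ± 0.15 in hpr1del, each called. Without WT replicate 1 the hpr1del change was -0.264. In hpr1del it was lost without any 1 hpr1del array (highest limma adjusted p = 0.0874) and under both scalings (0.0557 and 0.0576). MSW1, for tryptophan, read 962 on hpr1del replicate 1 and 433 and 501 on the other hpr1del arrays. With all 3 arrays its hpr1del change was -0.18 ± 0.26 (limma adjusted p = 0.602), and without replicate 1 it was -0.520 (0.0191). MSY1, MST1 and AIM10, for tyrosine, threonine and, likely, proline, fell in sub2del, with changes of -0.95, -0.65 and -0.56, and in tho2del, with -0.68, -0.51 and -0.39. In tho2del the calls of AIM10, MST1 and MSW1 were each lost without 1 tho2del array, with highest limma adjusted p of 0.0742, 0.0968 and 0.0551, and that of MSW1 in sub2del without sub2del replicate 2 (0.0922). MSM1, for methionine, read between 402 and 560 over all arrays and was not called in any comparison, with 95% intervals of its change against WT from -0.27 to 0.33 in hpr1del, -0.17 to 0.50 in sub2del and -0.35 to 0.32 in tho2del. SLM5, for asparagine, read 598 to 666 in WT, 619 to 684 in hpr1del and 318 on sub2del replicate 1, with the other sub2del and tho2del cells empty, so it was not tested in those strains.

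**Figure D4:**
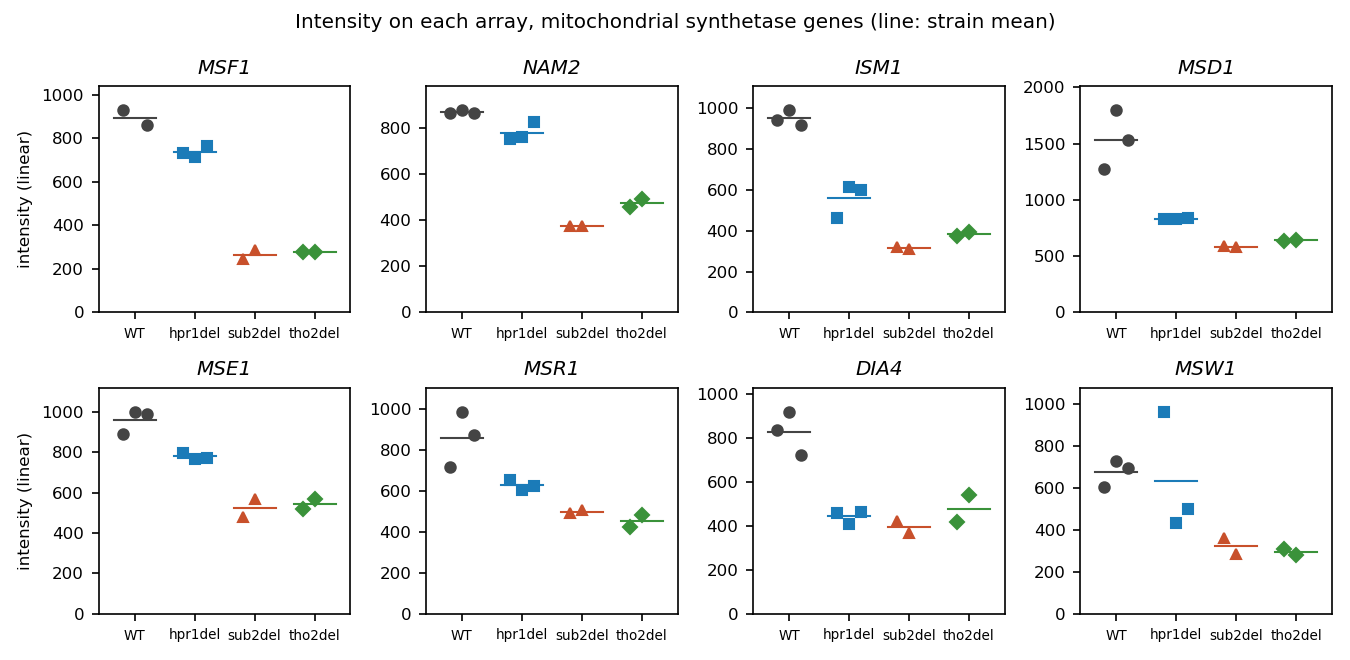
Linear intensity on every array for 8 mitochondrial genes, a point per array and a line for the strain mean, with each vertical axis starting at 0. MSF1 lies at or under 285 on all sub2del and tho2del arrays and at or above 716 on all others, and MSW1 reads 962 on hpr1del replicate 1 against 433 and 501 on the other hpr1del arrays.

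Mutants were also compared with each other. Tho2del had 12 members lower and 1 higher than hpr1del among 30 tested (limma), against 22.3% and 15.4% of 4781 probe sets (37.6% in either direction). Of the 13 mitochondrial genes 10 were lower, with a median of -0.42, and of the 17 cytosolic genes 2 were lower, DED81 and CDC60, with a median of -0.11. Neither DED81 nor CDC60 was called in any fit without 1 array of these strains, while 3 of the 10 mitochondrial calls held in every such fit. The count of 13 was 7, 8 and 6 without hpr1del replicates 1, 2 and 3, and 4 and 6 without tho2del replicates 1 and 2. All hpr1del arrays have few empty cells and all tho2del and sub2del arrays have many, so this property and the strains cannot be told apart within these pairs, and with it as a block fitted through WT the count was 8.

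Sub2del had 21 members lower and 2 higher than hpr1del among 30 tested (limma), against 35.6% and 16% of 4831 probe sets (51.6% in either direction). Mitochondrial members made up 9 of these falls, with a median of -0.56, and cytosolic members 12, with a median of -0.25, where the median of all probe sets was -0.165. ILS1 and GRS1 were the higher ones, and the call of GRS1 held in 2 of 5 fits without 1 array. Without sub2del replicate 1 the count of 23 was 15. Sub2del against tho2del gave 7 lower and 2 higher, against 12.2% and 8.56% of 4498 probe sets (20.8% in either direction), with a median of -0.15 in each compartment and -0.141 over all probe sets. Leaving out any 1 array leaves a strain with a single array, and fewer members and fewer of all probe sets were then called. Those fits therefore cannot decide whether the comparison holds. When array medians were subtracted, 0 members were lower and 2 higher, where 624 of 4498 probe sets were called, so the lower calls depended on scaling. The share of all calls that were higher between sub2del and tho2del went from 41.1% to 71.3% with that scaling, and between tho2del and hpr1del from 40.8% to 29.7% after quantile normalization.

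The genes for 1 amino acid were also set side by side, without a test of the difference between compartments. In every pair the mitochondrial probe set was the dimmer, so compartment and brightness cannot be told apart here either. In 15 pairs, of which FRS1 and FRS2 share the partner MSF1, 14 were tested in sub2del and in tho2del. The pairs of arginine and proline used YDR341C and YHR020W, cytosolic synthetase genes outside the 32. The mitochondrial gene had the more negative change in 13 of 14 pairs in sub2del and in tho2del and in 10 of 15 in hpr1del. In tho2del only the mitochondrial gene fell in 8 pairs and both fell in 5, while in sub2del both fell in 12. Isoleucine was the widest pair in sub2del, with ILS1 at 0.28 and ISM1 at -1.54. Aspartate was a pair in which both genes fell in every mutant, DPS1 with -0.63, -1.05 and -0.69 and MSD1 with -0.85, -1.35 and -1.23 in hpr1del, sub2del and tho2del. For methionine the order was the other way in sub2del, with MES1 at -0.49 and MSM1 at 0.17.

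**Figure D5:**
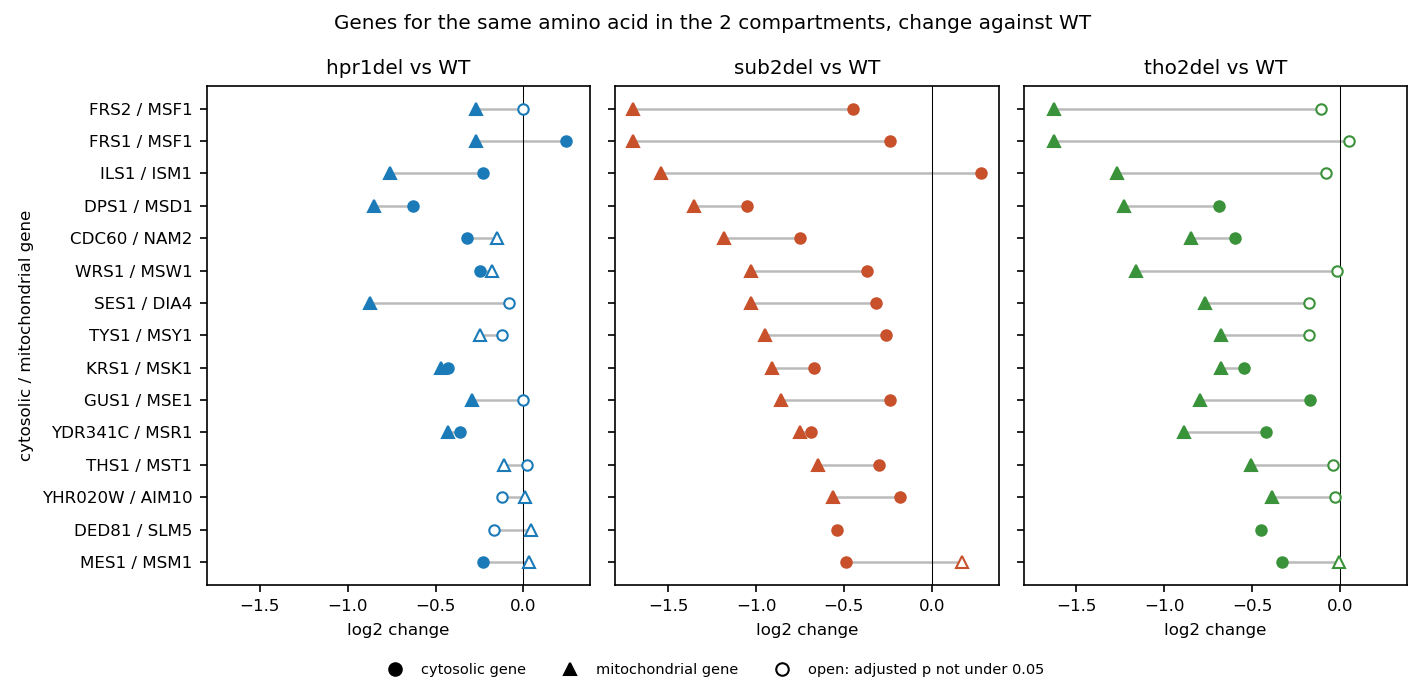
Log2 change of intensity + 16 against WT in each deletion strain for 15 pairs of genes that serve the same amino acid, with circles for the cytosolic gene, triangles for the mitochondrial gene and filled symbols where the limma adjusted p was under 0.05. The mitochondrial gene lies to the left in 13 of 14 tested pairs in sub2del and in tho2del, and MES1 with MSM1 is the exception in both.

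Other genes of charging and translation were taken from lists, whose counts stand against 22.8%, 40.4% and 32.6% of all probe sets lower and 22.8%, 20.8% and 24.4% higher in hpr1del, sub2del and tho2del. Of the cytosolic synthetase genes outside the 32, the arginyl gene YDR341C had changes of -0.36 ± 0.09, -0.69 ± 0.10 and -0.42 ± 0.10 in hpr1del, sub2del and tho2del (limma adjusted p = 0.0117, 4.33e-04 and 0.00721). The prolyl gene YHR020W fell by 0.18 in sub2del (0.0496), and GRS2, a second glycyl gene, rose by 0.37 in tho2del (0.0111). ARC1, which codes for a cofactor that binds the methionyl and glutamyl enzymes, had changes of 0.12, -0.09 and -0.05, none of them called. Of the subunits of the amidotransferase that forms glutaminyl-tRNA in mitochondria, HER2 fell in sub2del (-1.03) and tho2del (-0.70), and PET112 in tho2del (-1.17) and hpr1del (-0.36). GTF1, another of them, rose by 0.47 in hpr1del (0.0404). FMT1, the formylase of mitochondrial initiator tRNA, fell in hpr1del (-0.47) and rose by 0.55 in tho2del. Its means were only 61.2 in WT (2 values), 39.8 in hpr1del and 98 in tho2del, and PET112 read 233 in hpr1del and 126 in tho2del. Deleted genes read 79.2 to 252 in their own strains, so these values may lie near the background. DTD1, which removes D-amino acids from tRNA, was not called, with -0.01, -0.15 and -0.28.

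Mitochondrial translation factors fell in 6 of 6 tested cases in sub2del (median -0.96), and 5 fell and 1 rose of 7 in tho2del (median -0.72), whereas in hpr1del 2 fell and 2 rose of 8, shares near those of all probe sets. The genes that rose in hpr1del, MEF2 (0.76) and PET309 (0.31), were the ones not tested in sub2del. MRF1, the release factor, fell in sub2del (-1.90), tho2del (-1.49) and hpr1del (-1.27). MEF1, an elongation factor, fell in sub2del (-1.04) and tho2del (-1.05), and so did TUF1, the mitochondrial EF-Tu (-1.05 and -0.72). MEF2 also rose by 0.42 in tho2del, where PET309 was not tested. Of the cytosolic elongation factors 0 were lower in each mutant, and 1, 2 and 3 were higher in hpr1del, sub2del and tho2del, of 7, 6 and 6 tested (limma, with the same counts at an unadjusted p under 0.05), where 22.8%, 20.8% and 24.4% of all probe sets were higher. TEF4 rose by 0.18 in sub2del (limma adjusted p = 0.0497) and 0.31 in tho2del. The probe set of TEF2, which rose by 0.27 in sub2del and 0.20 in tho2del, is of a kind that can bind several transcripts, and TEF1 is its near-identical copy.

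Among 15 genes of tRNA maturation and export, 3 fell and 2 rose in hpr1del, 4 fell and 0 rose of 13 tested in sub2del, and 3 fell and 3 rose of 11 in tho2del. The shares that fell were near or below those of all probe sets (22.8%, 40.4% and 32.6%). In sub2del 4 fell and 1 rose at an unadjusted p under 0.05. SEN54, a subunit of the tRNA splicing endonuclease, had changes of -0.38, -1.13 and -0.86 in hpr1del, sub2del and tho2del, and TRM5, a tRNA methyltransferase gene, of -0.34, -0.54 and -0.40, all called. Of 7 genes of general amino acid control, 2 fell and 0 rose in each mutant, also at an unadjusted p under 0.05, against 22.8%, 40.4% and 32.6% of all probe sets that fell, so the count is no result about the list. GCN1, which activates the kinase Gcn2, fell in each (-0.56, -0.79 and -0.76), and so did PCL5, a cyclin gene that is a target of Gcn4 and promotes its breakdown (-1.07, -1.26 and -1.10, with 2 WT values). The others, GCN2, GCN3, GCN4, GCN20 and YIH1, had changes between -0.17 and 0.21. GCN4 mRNA had changes of -0.03 ± 0.08, -0.12 ± 0.09 and 0.00 ± 0.09 (limma adjusted p = 0.756, 0.275 and 0.999).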

How the data were processed

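Intensities were taken from the authors' deposited table, 1 value per probe set and array. How they were background-corrected, summarised and scaled is not stated. Per the labels' protocols, biotin-labelled cRNA was made with the One-Cycle assay. Probe sets were named by the platform annotation, with symbols brought up to date from the R64 gene table, and all 32 members had a plain probe set of their own. Values were put on the log2 scale after adding 16, which understates changes of dim genes. Linear models with a mean per strain were fitted to all 10 arrays and all probe sets with limma 3.58.1 in R 4.3.3. Empty cells were treated as missing, and a probe set was tested where both strains had at least 2 values. P-values were Benjamini-Hochberg adjusted within a comparison. The script was tested on simulated data. Members, lists and tests were chosen with earlier results of these data known. Array values are printed for the 4 members with the lowest adjusted p per compartment and mutant, for members called against the common direction, and for up to 4 called members per pair of mutants. MSW1 was added after its values were seen. Depth does not apply to arrays, and their number limits the precision. Alternatives were the offset, scaling, a filter on dim probe sets, empty cells, array weights, blocks and leaving out each array. No sequences were used here.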

Additional observations from a re-analysis of the deposited data

Results flagged for a closer look

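FRS1 rose in hpr1del and fell in sub2del, and the 2 strains differed from each other by -0.48 on the log2 scale (sub2del minus hpr1del, limma adjusted p = 0.00113). ILS1 did the opposite, falling in hpr1del and rising in sub2del, with a difference of 0.52 (limma adjusted p = 8.71e-04). Each stood out because its changes against WT had opposite signs in these strains and the difference between the strains passed the test. The calls against WT were fragile. Those of FRS1 held in 3 of 6 fits without 1 array in hpr1del and in 3 of 5 in sub2del, and those of ILS1 in 1 of 6 and 4 of 5. These strains also differ in empty-cell class on all their arrays.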

How the results depend on the processing

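Of 2765 log2 changes of single members recomputed under an alternative, 2473 kept their side of the threshold, 238 lost their call, 54 gained one and 0 reversed. Offsets of 1 and 64 changed no call. Without the dimmest 25% of probe sets the mitochondrial counts were 3, 6 and 6 in hpr1del, sub2del and tho2del, because 6 of the 14 genes were then tested, and the count for tho2del against hpr1del was 8. Array weights, whose estimation stopped before it converged and which ran from 0.104 to 6.49 within WT, gave 13 cytosolic and 11 mitochondrial calls in hpr1del. Over all probe sets that fit called 4303 of 5663, so these counts are near the share of all probe sets. Same-numbered hpr1del and WT arrays deviated with correlations of -0.177, -0.0641 and -0.106. Those of other pairs of strains ran from -0.214 (replicate 2 of tho2del and WT) to 0.11 (replicate 1 of hpr1del and tho2del). Deviations were taken from strain means of few arrays, which ties their signs together. The correlations therefore cannot decide whether the numbers pair arrays. The replicate block gave 5 cytosolic calls in hpr1del, 8 members for tho2del against hpr1del and 3 for sub2del against tho2del, and in other comparisons it kept counts within 1.5 times. The empty-cell class as a block gave 8 for tho2del against hpr1del. Only the arrays compared gave 6 cytosolic calls in tho2del, and subtracting array medians left 2 for sub2del against tho2del. For these the cause was not tested. Without 1 array, counts ranged from 4 to 12 (cytosolic) and 3 to 7 (mitochondrial) in hpr1del, from 6 to 11 for cytosolic genes in tho2del, and from 4 to 8, 15 to 20 and 0 to 1 for tho2del against hpr1del, sub2del against hpr1del and sub2del against tho2del. Strains with 1 array left were assumed to vary like the others. For sub2del or tho2del against hpr1del no arrays share an empty-cell class, so that alternative was not run.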
